A study of Mus musculus with 96 samples.

Results

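The genes described here are 4 regulators of the Müllerian duct, Wnt7a, Pax2, Emx2 and Lhx1, taken by name from a panel of 96 assays read in 96 single cells. All 4 had an assay in the panel, with Lhx1 listed under its older name lim1. The source was mouse uterus of postnatal day 7, dissociated with collagenase and sorted singly into a plate by an antibody to CD326 (EpCAM, an epithelial surface protein). All 96 cells form 1 group, and the labels give no strain, genotype, sex, treatment, control or number of animals. Each value is a cycle threshold (Ct, the PCR cycle at which product appears, so that an earlier Ct means more template), and a gene was counted as detected when its Ct was below 28. Cells of 1 group with no animal named are not replicates, so that no test between conditions was possible and no p-value is given. Intervals are exact (Clopper-Pearson) 95% intervals over cells, and they cover counting error only.

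The Müllerian duct is the embryonic tube that becomes the oviduct, uterus and upper vagina. In mice Lhx1, Pax2 and Emx2, which encode transcription factors of the LIM-homeobox, paired-box and homeobox families, are each needed for the duct to form or to persist, and females without them lack most of the tract. Wnt7a encodes a secreted WNT ligand made by the duct and uterine epithelium, which acts on the mesenchyme around it and is needed for patterning of the uterus and for its glands.

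Wnt7a was detected in 52 of 96 cells (54.2%, interval 43.7 to 64.4%), Pax2 in 43 (44.8%, 34.6 to 55.3%), Emx2 in 40 (41.7%, 31.7 to 52.2%) and Lhx1 in 6 (6.25%, 2.33 to 13.1%). Over the panel 55.2% of assays reached 50% of cells, as Wnt7a did and Pax2 and Emx2 did not. By share of cells the 4 genes ranked 50, 56, 58 and 92 of 96 assays. The intervals of Wnt7a, Pax2 and Emx2 overlap each other and that of Lhx1 lies below all 3. Depth differed widely between cells, which detected 9 to 78 of the 96 assays with a median of 54, and the epithelial keratin genes Krt8, Krt18 and Krt19 were detected in 87, 91 and 93 cells. Epcam itself was detected in 74 cells. Cell 67 had no value in the first 71 assays of the table, where all 4 regulators stand, so it carries no information on them.

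The 4 genes differed in how their Ct values were spread. Wnt7a ran from a Ct of 14.8 through a median of 18.3 to 27.9, and its latest value stood apart, since the next latest was 23.3. Emx2 ran from 14.9 through 19.3 to 25.6, with its next latest value at 22.7. For both genes, then, a cell mostly either gave a Ct well before the limit or gave none: 1 of 52 Wnt7a cells and 1 of 40 Emx2 cells had a Ct of 24 or later. Pax2 ran from 17.4 through 23.5 to 27.0, and 17 of its 43 cells had a Ct of 24 or later. With a Ct limit of 24 Pax2 was therefore detected in 26 cells (27.1%). Lhx1 was recorded in 8 cells, of which 6 counted as detected. Its values just inside the limit were 27.64 and 27.67 and those just outside it 28.54 and 28.95. No other regulator had a recorded value at or beyond 28. The sources used here do not give primers or their efficiencies, so Ct values were not compared between genes as amounts of RNA.

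**Figure D1:**
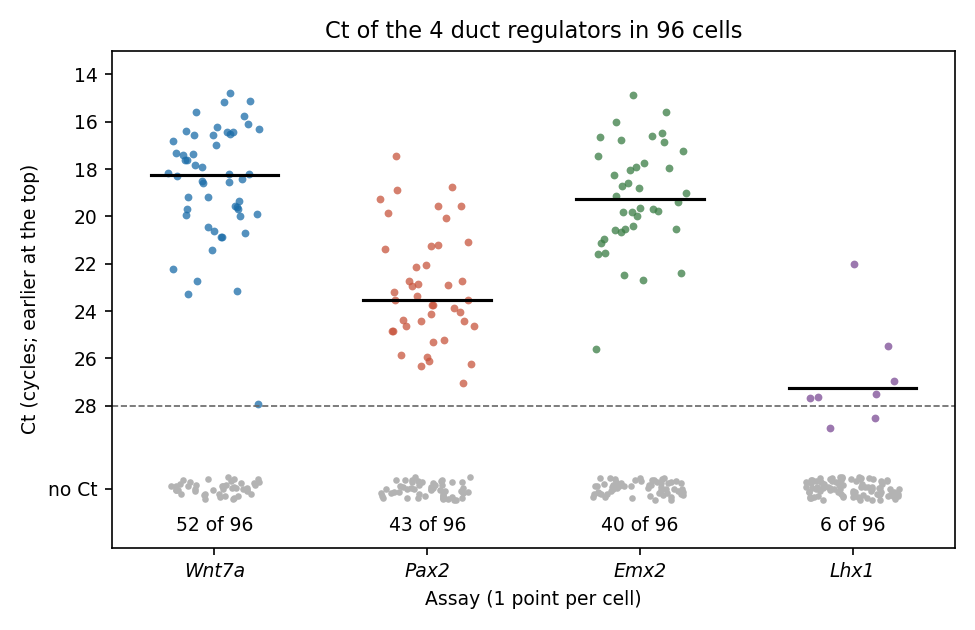
Ct of Wnt7a, Pax2, Emx2 and Lhx1 in 96 cells, 1 point per cell, with earlier cycles at the top, the limit of 28 as a dashed line, the median of detecting cells as a bar and cells with no Ct in grey. Wnt7a and Emx2 cells lie mostly before 24 cycles, Pax2 reaches 27.0 and 5 of the 6 Lhx1 cells lie between 25.5 and the limit.

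Detection of the regulators followed the Ct of Gapdh, a glycolytic enzyme gene used here as a measure of the RNA recovered from a cell. In the 24 cells with the earliest Gapdh (9.43 to 11.8) Wnt7a, Pax2 and Emx2 were each detected in 19 (79.2%, interval 57.8 to 92.9%), where the median assay was detected in 75.0% of cells. In the 24 cells with the latest or no Gapdh they were detected in 5, 2 and 4, where the median assay stood at 29.2%. Between these ends, in the third quartile of Gapdh, Wnt7a was found in 13 cells (interval 32.8 to 74.4%), Pax2 in 11 (25.6 to 67.2%) and Emx2 in 5 (7.13 to 42.2%). These intervals overlap, and the median assay stood at 54.2% there. In the second quartile the counts were 15 for Wnt7a, 11 for Pax2 and 12 for Emx2. The median Ct of Wnt7a in its detecting cells was 16.4, 18.5, 19.7 and 20.4 from the earliest to the latest quartile, and that of Emx2 was 17.9, 19.9, 19.6 and 21.5. A cell without one of these genes is thus not shown to lack its transcript. Differences in points below are given within quartiles of depth unless stated otherwise. Plain counts of cells, also those that compare sets of cells, are not adjusted for depth.

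**Figure D2:**
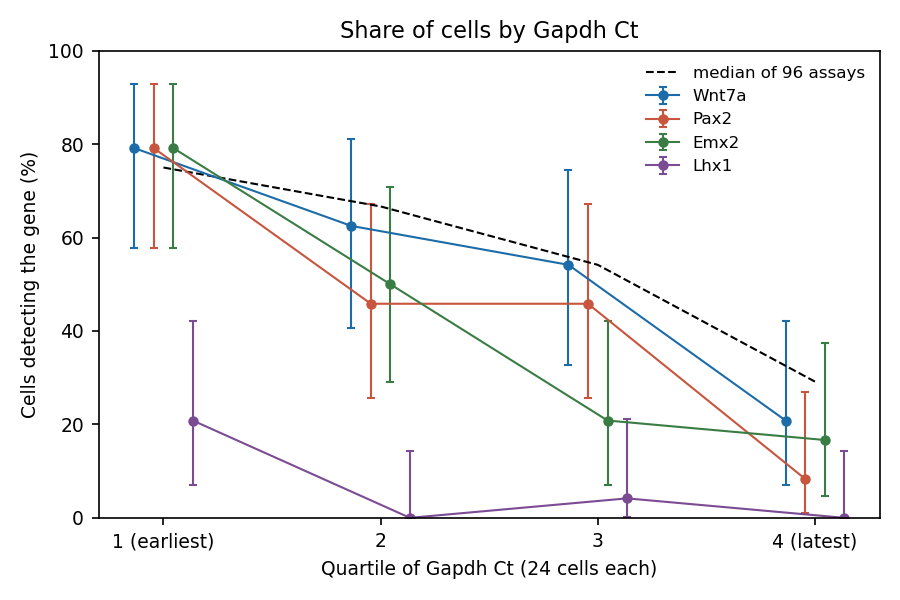
Share of cells detecting each regulator in quartiles of Gapdh Ct (24 cells each, earliest on the left), with exact 95% intervals, and the median share of all 96 assays as a dashed line. Wnt7a, Pax2 and Emx2 start together at 79.2% and end between 8.33% and 20.8%, and Lhx1 has 5 of its 6 cells in the first quartile.

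Wnt7a, Pax2 and Emx2 were found in a larger share of cells with Hprt, a reference gene of purine salvage, on either side of the median Gapdh Ct. Among the 48 cells with Gapdh at or before its median Ct of 13.4, Wnt7a was detected in 33 of 39 cells with Hprt (84.6%) and in 1 of 9 without it (11.1%). Among the cells with later Gapdh it was detected in 16 of 25 with Hprt and in 2 of 23 without. Pax2 was detected in 29 of 39 and 1 of 9 early-Gapdh cells, and Emx2 in 29 of 39 and 2 of 9. In the later-Gapdh cells Pax2 was detected in 11 of 25 with Hprt and 2 of 23 without, and Emx2 in 6 of 25 and 3 of 23. Lhx1 was detected in 3 of 39 and 2 of 9 early-Gapdh cells and 0 of 25 and 1 of 23 later ones, too few cells to give a direction. Whether Hprt here stands for RNA content or for a kind of cell was not tested.

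Most cells that carried 1 of the 3 common regulators carried another. Of the 96 cells, 26 detected Wnt7a, Pax2 and Emx2 together (27.1%, interval 18.5 to 37.1%), 18 detected 2 of the 3, 21 detected 1 and 31 none. Cells with all 3 detected a median of 61.5 assays and cells with none a median of 43, so that deeper cells held more of the regulators. Of the 67 cells with at least 49 detected assays, the lowest number in any cell with all 3, 12 detected none of the 3. Epcam was detected in 26 of the 26 cells with all 3 and in 5 of those 12 cells, and Tbx3, a T-box factor gene, in 6 of 26 and 6 of 12. Eng (endoglin, found on endothelium and stroma) was detected in 1 of the 26 and 4 of the 12, Vim, the mesenchymal filament gene, in 0 and 3, and Krt8 in 25 and 12. Cdh1 (E-cadherin), an epithelial gene like Krt8, was detected in 26 of the 26 and 10 of the 12. Hprt was detected in 26 of the 26 and 4 of the 12, and the leukocyte gene Ptprc in 16 and 11. Their part in the difference was not tested.

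Pax2 was found mainly in cells with Wnt7a. It was detected in 37 of 52 cells with Wnt7a (71.2%, interval 56.9 to 82.9%) and in 6 of 44 cells without it (13.6%, 5.17 to 27.4%). Within quartiles of the number of other assays detected, combined with Mantel-Haenszel weights, the share was 46.1 percentage points higher with Wnt7a, and within quartiles of Gapdh Ct 44.7 points higher. In the deepest quartile 18 of 19 cells with Wnt7a and 0 of 4 without it detected Pax2. Among 75 assays found in 10% to 90% of cells, 18.7% were higher with Wnt7a by at least 20 points on this measure and 8% were lower by as much.

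The differences for Emx2 were smaller once depth was taken into account. Emx2 was detected in 31 of 52 cells with Wnt7a (59.6%) and 9 of 44 without (20.5%), a difference of 39.2 points that was 18.8 points within depth quartiles. In the deepest quartile it was found in 15 of 19 cells with Wnt7a and 4 of 4 without. Those 4 are cells 57, 59, 70 and 93, of which 57, 59 and 70 are described further below. From the next deepest to the shallowest quartile Emx2 was in 8 of 12 and 1 of 10, 8 of 14 and 3 of 10, and 0 of 7 and 1 of 20. It was detected in 28 of 43 cells with Pax2 (65.1%) and 12 of 53 without (22.6%), a difference of 42.5 points that was 20.1 within depth quartiles and 27.3 within Gapdh quartiles. In the 63 cells that detected Gapdh, actin and Hprt this difference was 11.9 points. With any recorded Ct counted as detection it was 17.9, and without the 10% of cells with the most genes it was 18.1. In the deepest quartile Emx2 was found in 14 of 18 cells with Pax2 and 5 of 5 without. From the next deepest to the shallowest quartile it was in 8 of 11 and 1 of 12, 6 of 11 and 5 of 13, and 0 of 3 and 1 of 23. The direction was thus not the same in all quartiles. Taken the other way round, Wnt7a was 23.9 points and Pax2 23.4 points more often detected with Emx2 than without. The difference for Emx2 and Wnt7a thus lies close to 20 points and falls on either side of it with the gene that is conditioned on.

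Where Pax2 and Emx2 were both detected, their Ct values ran closely together. Over the 28 cells that detected both, Emx2 ran from a Ct of 14.9 through a median of 18.8 to 22.7 and Pax2 from 17.4 through 22.8 to 26.3. In the 9 of these cells with the earliest Emx2 (14.9 to 17.9) Pax2 lay between 17.4 and 21.1, and in the 9 with the latest Emx2 (20.0 to 22.7) it lay between 23.4 and 26.3, so the ranges did not overlap. The Spearman rho of the paired Ct values was 0.91 and the Pearson r 0.90, and without the 2 cells farthest from the median they were 0.89 and 0.88. The difference between both Ct values had an SD of 1.10 cycles, against SDs of 2.47 for Pax2 and 1.97 for Emx2. The points share a chip and the RNA input of each cell, and both genes followed Gapdh in these cells at a rho of 0.58. After the Gapdh Ct of the same cell was subtracted the rho was 0.82, and after that of actin 0.86, although the subtracted value is itself shared by both genes.

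**Figure D3:**
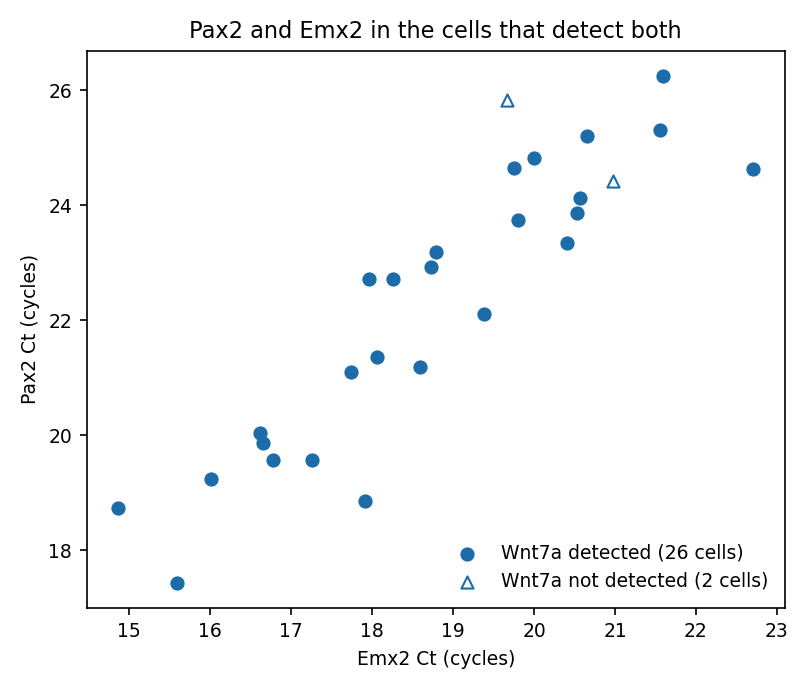
Ct of Pax2 against Ct of Emx2 in the 28 cells that detect both, 1 point per cell, filled where Wnt7a was detected too (26 cells) and open triangles where it was not (2 cells). The points rise together from about 15 and 17 cycles to 23 and 26, with a rho of 0.91.

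Of the 2461 pairs of assays detected together in at least 20 cells, Pax2 and Emx2 had the highest rho. The median over pairs was 0.34, and 0.366% of pairs reached 0.8. With Gapdh subtracted the pair ranked 2 of 2384, where the median was 0.13 and 2 pairs reached 0.8. The place of the pair was seen before it was singled out, and it carries no test. Wnt7a followed Pax2 and Emx2 less closely. Its rho was 0.52 with Pax2 over 37 cells and 0.56 with Emx2 over 31, and with Gapdh subtracted these were 0.19 and 0.44. The highest rhos of the Wnt7a Ct were with Ctnnb1 (beta-catenin, which carries the canonical WNT signal) at 0.82 over 52 cells, Hprt at 0.79 over 49 and Epcam at 0.78 over 50, and its rho with Gapdh was 0.72. With Gapdh subtracted these 3 were 0.60, 0.67 and 0.51. After Emx2, the assay closest to Pax2 was Prom1 (CD133, a surface protein of progenitor and epithelial cells), at 0.76 over 29 cells. The assays closest to Emx2 after Pax2 were the WNT receptor gene Fzd10, at 0.85 over 21 cells, and Ezh2, a Polycomb methyltransferase gene, at 0.80 over 34. With Bmi1, another Polycomb gene, the rhos were 0.07 for Wnt7a, -0.08 for Pax2 and 0.00 for Emx2 over 52, 43 and 40 cells. These partners of the Ct values were also picked after the values were seen.

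Pax2 and Emx2 both lie on mouse chromosome 19. Because their Ct values moved together, the 250 bases before each of their transcription starts are shown, from RefSeq (GRCm38.p6), on the strand of the gene and from 5′ to 3′. Pax2 has 3 starts in that table, and the assay does not tell which was used. Capitals mark the letters of a GC box (GGGCGG) or a CCAAT box (CCAAT), searched on both strands, and overlapping matches run together.
Emx2, chr19:59458440-59458689, + strand: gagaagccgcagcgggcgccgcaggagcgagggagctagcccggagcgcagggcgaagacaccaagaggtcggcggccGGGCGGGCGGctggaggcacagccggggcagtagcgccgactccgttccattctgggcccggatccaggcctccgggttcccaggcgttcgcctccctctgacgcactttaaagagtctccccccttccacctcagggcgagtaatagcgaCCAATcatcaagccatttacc
Pax2, upstream start, chr19:44746351-44746600, + strand: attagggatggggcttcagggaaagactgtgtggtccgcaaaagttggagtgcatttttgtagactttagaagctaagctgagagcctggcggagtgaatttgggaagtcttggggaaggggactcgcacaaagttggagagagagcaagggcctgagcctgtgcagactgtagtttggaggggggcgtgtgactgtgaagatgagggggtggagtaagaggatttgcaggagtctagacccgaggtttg
Pax2, middle start, chr19:44755502-44755751, + strand: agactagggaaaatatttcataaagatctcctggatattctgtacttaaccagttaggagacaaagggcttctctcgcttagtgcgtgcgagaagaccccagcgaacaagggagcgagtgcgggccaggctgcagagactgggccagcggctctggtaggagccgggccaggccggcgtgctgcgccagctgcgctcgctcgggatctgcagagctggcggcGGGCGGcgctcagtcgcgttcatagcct
Pax2, downstream start, chr19:44756656-44756905, + strand: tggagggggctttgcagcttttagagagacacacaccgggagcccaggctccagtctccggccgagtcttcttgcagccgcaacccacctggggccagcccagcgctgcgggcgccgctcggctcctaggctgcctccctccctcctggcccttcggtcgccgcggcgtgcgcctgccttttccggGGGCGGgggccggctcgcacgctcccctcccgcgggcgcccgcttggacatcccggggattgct
Emx2 held 2 overlapping GC boxes and 1 CCAAT box, the middle and downstream starts of Pax2 held 1 GC box each, and the upstream start of Pax2 held neither motif. A GC box was found in 32.7% and a CCAAT box in 33.8% of 32851 mouse promoter windows of the same length, so these matches are common. The homeodomain core TAATTA, the TCF/LEF core CTTTGAT and the TATA box TATAAA were not found in any of the 4 windows, and they occurred in 4.84%, 3.21% and 12.4% of all windows. CG dinucleotides numbered 24 for Emx2 and 5, 20 and 25 for the upstream, middle and downstream starts of Pax2, against a median of 6 over all windows. The matches describe the letters only.

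Other genes also differed between cells with and without a regulator. Within depth quartiles 14 of 75 assays were at least 20 points more often detected with Wnt7a and 6 at least 20 points less often. For Pax2 the counts were 11 (14.7%) and 4 (5.33%), and for Emx2 11 (14.7%) and 5 (6.67%). Cd55, which encodes a membrane regulator of complement, was detected in 48 of 52 cells with Wnt7a (92.3%) and 13 of 44 without (29.5%), 62.0 points more within depth quartiles. Hprt and Hopx, a homeodomain-only protein gene, were 52.7 and 49.6 points higher with Wnt7a. The 3 assays with the largest gain with Pax2 were Wnt7a (49.3 points), Cd55 (45.7) and Prom1 (44.7). Those with Emx2 were Prom1 (35.1), the insulin receptor gene Insr (29.0) and Lgr5, an R-spondin receptor gene of stem cells in other epithelia (27.3).

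Mst1r, the gene of the receptor tyrosine kinase RON, lay at the low end for all 3 regulators. It was detected in 11 of 52 cells with Wnt7a and 15 of 44 without, and its difference within depth quartiles was -32.8 points with Wnt7a, -29.8 with Pax2 and -34.7 with Emx2. Tbx3 was detected in 7 of 52 cells with Wnt7a (13.5%) and 15 of 44 without (34.1%). Its difference within depth quartiles was -36.7 points with Wnt7a and -29.8 with Pax2, and it was 2.42 points with Emx2. Enpep, an aminopeptidase gene, had a difference of -30.5 points with Emx2 within depth quartiles, which was -6.52 within quartiles of Gapdh Ct, and 9.29 with no quartiles. Ptprc likewise differed by -26.4 points with Emx2 within depth quartiles, by 0.725 within Gapdh quartiles and by 13.9 with no quartiles. Mst1r was at -26.3 points with Emx2 within Gapdh quartiles. With no quartiles it was at -12.9 points with Wnt7a, -6.93 with Pax2 and -7.86 with Emx2. Its sign was thus kept without quartiles, while the size of its difference rested on the adjustment for depth.

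**Figure D4:**
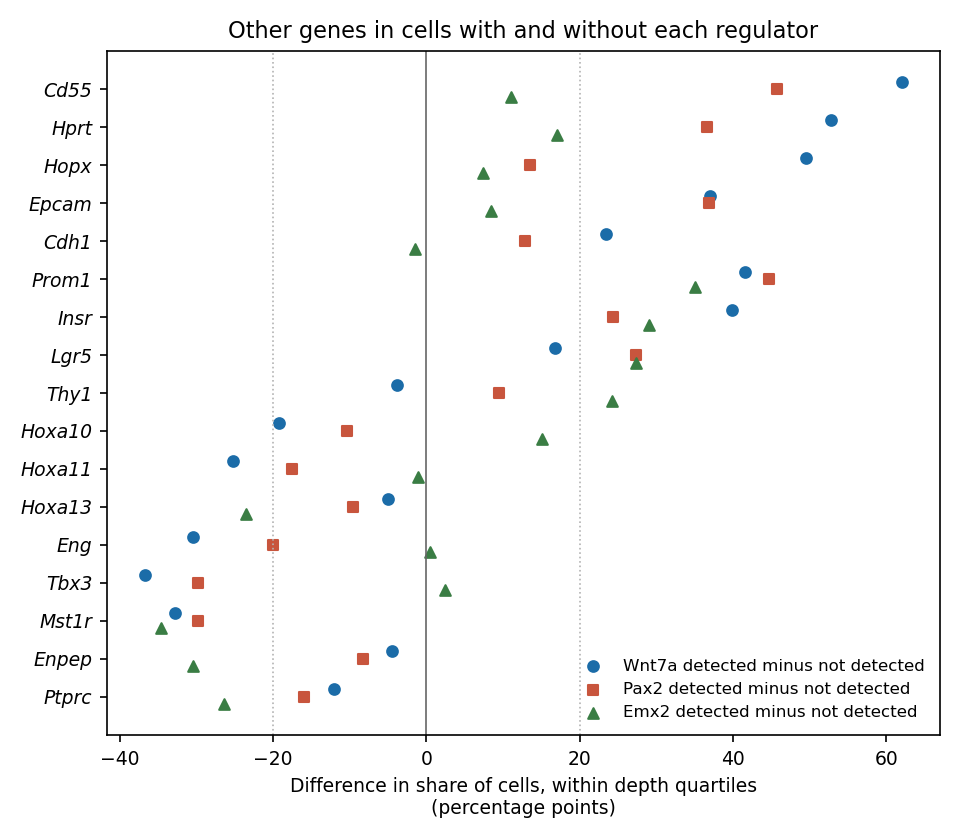
Share of cells detecting 17 other genes in cells with a regulator minus cells without it, within quartiles of detected assays, in percentage points, for Wnt7a (circles), Pax2 (squares) and Emx2 (triangles). Dotted lines stand at 20 points on either side. Cd55 and Epcam lie to the right for Wnt7a and Pax2 and nearer the centre for Emx2, and Mst1r lies to the left for all 3.

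Some markers of epithelium and of other cell types differed with Wnt7a and Pax2. Epcam was detected in 50 of 52 cells with Wnt7a and 24 of 44 without, and in 43 of 43 cells with Pax2 and 31 of 53 without. Pax2 was thus found in 0 of the 22 cells with no Epcam. A limit of 3 counts puts that share at 13.6% or less, and the exact interval ends at 15.4%. The 74 cells with Epcam detected a median of 55.5 assays and the 22 without it a median of 46. Emx2 was detected in 36 of 74 cells with Epcam and 4 of 22 without, and within depth quartiles Epcam was 8.43 points higher with Emx2, against 37.0 with Wnt7a and 36.9 with Pax2. Cdh1, the E-cadherin gene, was 23.5 points higher with Wnt7a, 12.8 higher with Pax2 and at -1.54 points with Emx2. The keratin gene Krt15 differed by -25.2 points with Wnt7a, -13.7 with Pax2 and -19.0 with Emx2 within depth quartiles. Within Gapdh quartiles these were -17.9, -3.53 and -7.73 points. With no quartiles they were -1.40, 12.3 and 11.4, so the signs for Pax2 and Emx2 rest on the adjustment for depth. Of 9 measured mesenchymal markers 8 were found in 10% to 90% of cells. With Wnt7a 0 of the 8 were higher and 2 lower by at least 20 points (Eng and Tbx3, median over the 8 of -4.58 points). With Pax2 the same 2 were lower (median -3.51). With Emx2 Thy1 was higher (24.2 points, 19.8 within Gapdh quartiles) and none lower (median -0.56). Of all 75 assays 8% were lower with Wnt7a, 5.33% with Pax2 and 6.67% with Emx2, and 14.7% were higher with Emx2. Others on the list went the other way, such as Nt5e and Mme, at 16.4 and 11.7 points with Wnt7a and 13.7 and 4.06 with Pax2. Over all 75 assays the medians were 4.48, 3.88 and 2.42 points. Vim, found in 7 cells, was detected in 0 of 52 cells with Wnt7a and 0 of 43 with Pax2, where the exact intervals end at 6.85% and 8.22%. Ptprc, found in 57 cells, differed by -12.0 points with Wnt7a and -16.0 with Pax2 within depth quartiles. Within Gapdh quartiles it differed by -7.05 and -9.18 points, and with no quartiles by 13.1 and 14.6. Pecam1, an endothelial marker, was detected in 93 cells (96.9%), in 52 of 52 with Wnt7a and 41 of 44 without. Cd34, also an endothelial marker, differed by -12.2, -11.4 and -19.3 points with Wnt7a, Pax2 and Emx2 within depth quartiles. These were -17.3, -21.2 and -16.9 points within Gapdh quartiles and 10.3, 12.9 and 11.1 with no quartiles. What Pecam1 and Ptprc detection says of cell type in these sorted cells was not tested. The part of these other markers in the link between the regulators was not tested.

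The 9 cells with Emx2 and no Wnt7a differed from the 31 with both. Their Emx2 Ct had a median of 19.6 (16.5 to 22.5), within the range of the 31 (median 19.0, 14.9 to 25.6), and the sets detected medians of 56 and 60 assays. The median Gapdh Ct was 13.0 in the 9 and 11.8 in the 31, and the counts that follow are not adjusted for depth. Prom1 was detected in 1 of the 9 (11.1%, interval 0.281 to 48.2%), in 25 of the 31 (80.6%, 62.5 to 92.5%), in 7 of 21 cells with Wnt7a and no Emx2, and in 5 of 35 cells with neither. Eng was detected in 4 of the 9 and 1 of the 31, Tbx3 in 6 of the 9 and 6 of the 31, and Hoxa10, a homeobox gene of the uterus known for its role in stroma, in 5 of the 9 (55.6%, 21.2 to 86.3%) and 4 of the 31 (12.9%, 3.63 to 29.8%). Pax2 was detected in 2 of the 9 and 26 of the 31, and Epcam in 6 and 30. Hprt was detected in 4 of the 9 and 31 of the 31, and Cdh1 in 6 and 31, while Krt19 was detected in all 40 of these cells. Prom1 was named for its large difference with Emx2 in these same cells. Its high share in the 31 follows in part from that choice, which the intervals do not allow for. The 5 cells with Hoxa10 among the 9 include the 4 described below, so those counts are not separate results. The part of RNA content in these differences was not tested.

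**Figure D5:**
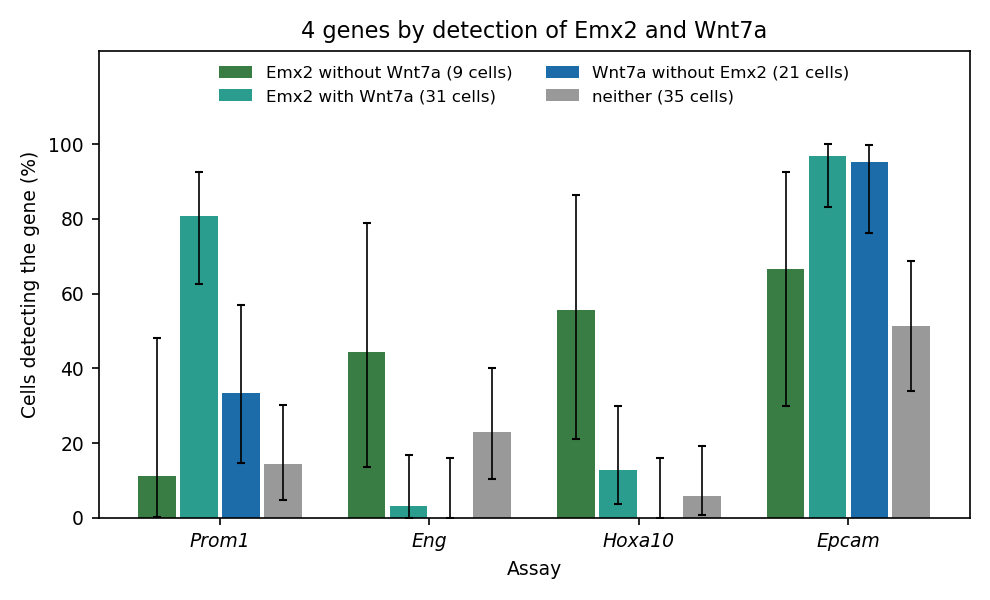
Share of cells detecting Prom1, Eng, Hoxa10 and Epcam in cells with Emx2 and no Wnt7a (9), with both (31), with Wnt7a and no Emx2 (21) and with neither (35), with exact 95% intervals. Prom1 is highest in the cells with both regulators, and Hoxa10 in the cells with Emx2 and no Wnt7a. Prom1 was chosen by its difference with Emx2 in these same cells, which the intervals do not allow for.

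In 4 of these 9 cells Hoxa10, Hoxa11, Tbx3 and Thy1 (a surface marker of stromal and other cells) were all detected. The other 87 cells held 0 such cells. These 4 genes and cells were picked after their values were seen, so the 2 counts follow from the choice and carry no interval or test. The cells are numbered 57, 59, 70 and 81. None of them had a Ct for Wnt7a or Pax2, and their Emx2 Ct values were 19.2, 16.5, 16.8 and 19.6. Cells 57, 70 and 81 detected Eng (18.2, 18.3 and 17.5) and cells 59 and 70 detected Epcam (24.3 and 21.4). Krt8 was detected in all 4, between 15.7 and 20.3. No cells were removed as doublets, and the 4 cells detected 51 to 64 assays.

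The uterine Hox genes differed in direction between the regulators, in part through the adjustment for depth. Within depth quartiles Hoxa10, Hoxa11 and Hoxa13 differed by -19.3, -25.2 and -5.02 points with Wnt7a and by -10.3, -17.5 and -9.53 points with Pax2. With Emx2 they differed by 15.0, -1.11 and -23.5 points. With no quartiles Hoxa10, Hoxa11 and Hoxa13 were at -8.22, -15.6 and 6.29 points with Wnt7a and 0.307, -8.38 and 3.69 with Pax2. With Emx2 they were then at 18.9, 3.93 and -4.29. The signs of Hoxa13 with Wnt7a, Hoxa10 and Hoxa13 with Pax2 and Hoxa11 with Emx2 thus rest on that adjustment. Of 5 patterning genes in the 10% to 90% band besides each regulator, at least 20 points higher were 1 with Wnt7a (Pax2), 2 with Pax2 (Wnt7a and Emx2) and 2 with Emx2 (Wnt7a and Pax2), where the shares of all 75 assays were 18.7%, 14.7% and 14.7%. Lower were Hoxa11 with Wnt7a, none with Pax2 and Hoxa13 with Emx2, the last of which was at -15.5 points within Gapdh quartiles. The shares of all 75 assays that were lower were 8%, 5.33% and 6.67%. Hoxa10 was detected in 9 of 40 cells with Emx2 (22.5%) and 2 of 56 without (3.57%).

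Of 9 WNT pathway genes in the band, 0 were at least 20 points higher or lower with Wnt7a, with a median of 8.94 points. Of all 75 assays 18.7% were higher with Wnt7a and 8% lower. With Pax2, 2 of 10 were higher (Wnt7a and Lgr5, against 14.7% of all assays) and 1 lower (the receptor gene Fzd9, against 5.33%). Fzd9 was at -25.9 points, and at -18.4 within Gapdh quartiles. With Emx2, 3 of 10 were higher, Lgr5, Fzd10 (26.5 points) and Wnt7a, against 14.7% of all assays, and none lower, against 6.67%. On the gland list Prom1 was higher with all 3 regulators, by 41.5 points with Wnt7a, 44.7 with Pax2 and 35.1 with Emx2. Sox9, a transcription factor gene of glands and progenitors, was 7.82, 20.6 and 14.4 points higher, and Aldh1a1, a retinoic acid synthesis gene, 11.9, 19.5 and 23.9. Within Gapdh quartiles Sox9 was 3.85, 14.4 and 4.83 points higher and Aldh1a1 9.83, 15.1 and 16.9, so neither passed 20 points there. The steroid receptor genes Esr1 and Pgr lay between -17.5 and 11.5 points with the 3 regulators, although Pgr was 24.6 points higher with Emx2 within Gapdh quartiles. Mki67, a gene of cycling cells, differed by -8.40 points with Wnt7a, -0.50 with Pax2 and 15.2 with Emx2, and within Gapdh quartiles by -19.4, -18.6 and -3.38.

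Lhx1 was found in 6 cells, numbered 9, 44, 59, 60, 81 and 94, with Ct values of 27.7, 25.5, 27.5, 26.9, 22.0 and 27.6. Cell 81 was the earliest, and the other 5 lay between 25.5 and the limit. Those 5 cells were all in the earliest quartile of Gapdh, between 9.43 and 11.3, while Gapdh in cell 81 was at 14.5. Cells 44 and 60 detected all 4 regulators, cell 94 Wnt7a and Pax2, cells 59 and 81 Emx2, and cell 9 no other regulator. Cells 44, 60 and 94 had Wnt7a at 15.8, 16.4 and 16.5 and Epcam at 18.6, 16.3 and 17.4. Cell 81 instead had no Ct for Epcam, Cdh1, Hprt, Wnt7a or Pax2, and detected Emx2 at 19.6, Hoxa10 at 18.8, Hoxa11 at 17.9, Eng at 17.5, Vim at 26.1, Thy1 at 19.4 and Krt8 at 20.3. Lhx1 was detected in 3 of 52 cells with Wnt7a and 3 of 44 without, in 3 of 43 with Pax2 and 3 of 53 without, and in 4 of 40 with Emx2 and 2 of 56 without. With 6 cells, no difference in these shares was detectable at this depth. With a Ct limit of 24, Lhx1 was left in cell 81 alone.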

How the data were processed

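Per the labels' protocols, single CD326-positive uterine cells were lysed, reverse transcribed and preamplified with a 1-step kit, and quantitative PCR with EvaGreen was run on a Fluidigm Biomark chip. The sources used here give no baseline settings, primers or quality filters. The deposited table holds raw Ct values, not normalized per the file headers, with 40 where no Ct was recorded (4320 of 9216 values). A second deposited table gives each value as a fold (a ratio) to a housekeeping gene and to cell 1, per the file headers, and served as an alternative.

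Detection was a Ct below 28. Shares within cells with and without a gene were compared in 4 quartiles of the number of the other 94 assays detected, combined with Mantel-Haenszel weights, for assays in 10% to 90% of cells. The steps were tested on simulated data. Each sample is 1 cell, so depth was taken as its count of detected assays. Named genes were the 4 regulators, for each common regulator the 3 assays with the highest and 2 with the lowest difference, the reference genes, Epcam, and members of the patterning and marker lists; others are said to be picked later. The regulators and lists were chosen with earlier results of these data known. Assay names were matched to RefSeq symbols (GRCm38.p6). Alternatives covered Ct limits, cell subsets, scaling and strata. Python 3.11.15, numpy 2.4.6, pandas 2.3.3, scipy 1.17.1 and matplotlib 3.10.9 were used.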

Additional observations from a re-analysis of the deposited data

How the results depend on the processing

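Of 137 recomputed values, 106 kept inside the interval of a share (for a difference, an interval as wide as that of the share with the gene), 1 SD of a mean Ct or 0.1 of a rho, 31 moved and 0 turned in sign. In the 63 cells where all 3 reference genes (Gapdh, actin, Hprt) were detected, the shares were 77.8% for Wnt7a, 63.5% for Pax2 and 55.6% for Emx2, and 66.7% of cells held at least 2 of the 3 in place of 45.8%. In the 74 cells with Epcam they were 67.6% for Wnt7a, 58.1% for Pax2 and 58.1% for at least 2 of the 3. With a Ct limit of 24, Pax2 fell to 27.1% and Lhx1 to 1.04%, and with 26 Lhx1 was at 2.08%. The mean Ct of Lhx1, 26.2, was then 22.0 and 23.7. These follow from the limit, which leaves 1 and 2 cells. Without depth quartiles, Emx2 was 39.2 points higher with Wnt7a and 42.5 higher with Pax2, in place of 18.8 and 20.1. The mean Ct in detecting cells was 18.6 for Wnt7a, 23.0 for Pax2 and 19.2 for Emx2. Minus Gapdh the means were 6.06, 10.7 and 7.03, and 15.3 for Lhx1. On log2 of the deposited folds they were 13.4, 8.77 and 12.4, and 4.18 for Lhx1. Both differ from Ct by construction. Some of the 106 values that kept could not have moved. Counting any recorded Ct changed no share or mean Ct of the 3 common regulators, which had no value at or beyond 28. Leaving out cell 67, or the 8 cells with Gapdh later than 18 or missing, left every mean Ct the same. The number 106 is thus not a count of independent checks.

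The rho of Pax2 and Emx2 stayed between 0.82 and 0.93 in 9 alternatives. The subset with Epcam and that without cells of late or no Gapdh kept the same 28 cells, so they could not change it. That of Wnt7a and Emx2 was 0.44 minus Gapdh, and 0.67 (Pearson r 0.70) when the 2 most distant cells were left out. That of Wnt7a and Pax2 was 0.19 minus Gapdh, 0.63 minus actin, 0.40 as Pearson r, 0.66 (Pearson r 0.64) without the 2 farthest cells and 0.41 without the 10% of cells with the most genes, so it moved with the scaling, the statistic and the cells kept; the cause was not tested. Cell subsets for rho, and actin, were added after the data were seen. No paired analysis was possible because all cells belong to 1 group. Detection near the limit restricts what can be said of Lhx1 and of the later part of Pax2.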
